A study of Oryza sativa Indica Group with 16 samples.

Results

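Expansins are proteins of the plant cell wall, and 10 rice expansin genes were followed here across 4 genotypes with and without salt. They are the alpha-expansins EXP1, EXP2, EXP4, EXP5, EXP7 and EXP10 and the beta-expansins EXPB2, EXPB3, EXPB4 and EXPB6. Every probe set that the array's annotation gives to exactly 1 of these genes was taken, which gave 12 probe sets of the 57258 on the array, 3 of them for EXP7. They stand for 10 of the 17905 genes the annotation names. Of the 12, 10 passed the filter on dim probe sets and were tested, covering 9 genes. The genes were picked with results of these arrays known. The comparison of the tolerant with the sensitive bulk after salt is taken as the one that picked them, so it is described without a test.

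The arrays, Affymetrix rice genome arrays, measured RNA of whole rice seedlings 10 days after germination. Salt-treated seedlings had 24 h of 150 mM NaCl and were set against untreated controls of the same genotype. The genotypes were CSR27, the salt-tolerant parent, MI48, the salt-sensitive parent, and a tolerant and a sensitive bulk, each a pool of recombinant inbred lines of 1 phenotype, so a bulk gives a level of a pool and not of a line. Each genotype and treatment had 2 arrays, 16 in all. The labels do not say how the plants of the 2 arrays were divided. Every p below therefore reflects how far the 2 arrays of the fitted groups lay apart, which may be technical. The fit of the 8 bulk arrays pools this spread, so scatter in the sensitive bulk also enters every p of the tolerant bulk, and the reverse.

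Expansins let the wall of a growing plant cell stretch. They loosen the contacts between cellulose and other wall polymers at acidic pH without cutting the polymers. Plants hold an alpha and a beta family, and grasses have many members of the beta family, which also includes the group 1 pollen allergens. In rice, expansin genes have been studied mainly in the coleoptile, the root and the fast-growing internode of deepwater rice.

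Array brightness and array quality limited what could be compared. Deposited signals had array medians between 0.4 and 86.3, the bulk arrays lying between 14.8 and 26.1, so each array was scaled to a common log2 median. Spearman rho over all probe sets was 0.90 to 0.93 between bulk arrays and 0.64 to 0.77 between the 6 usable parent arrays. No rice signal was found on CSR27 control replicate 2 or on CSR27 salt replicate 1, whose rho against the others was -0.001 to 0.010. CSR27 therefore had 1 array per condition and is given as values alone. Below, a scaled signal is a linear level that can be set against the same probe set on another array but not against another probe set. Differences are in log2 units, salt minus control or tolerant minus sensitive, with the standard error (SE) of the fit, and a probe set is called changed at a limma adjusted p under 0.05, adjusted over all probe sets tested.

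Part of the expansins were lower after salt in the bulks. Averaged over both bulks, 5 of the 10 tested expansin probe sets fell and none rose, where 14.9% of all 32977 tested probe sets were called, 12.3% as fallers and 2.63% as risers. The fallers were EXP2, EXP10, EXPB3, EXPB4 and EXPB6. The median difference of the 10 was -0.39, against -0.14 over all probe sets. After quantile normalization, which removes most of that common shift, 3 were called (EXP2, EXP10 and EXPB6), and the median was -0.15 against -0.00 over all. All 5 calls ended in fits that added the more variable parent arrays (14 or 16 arrays), where limma called 0 of 10, with 1 and 0 at an unadjusted p under 0.05. A difference between the bulks after salt cancels out of this average difference. Its SE and p still rest on the same arrays and a shared spread estimate. The genes were also picked with results known, so the counts of calls are not free of that choice.

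EXP2, an alpha-expansin first cloned from deepwater rice, had the lowest average salt response of the tested expansins. Its scaled signals were 111 and 119 in the salt-treated tolerant bulk, against 260.5 and 234 in the tolerant control, and 92.5 and 82.4 in the salt-treated sensitive bulk, against 237 and 132 in the sensitive control. All 4 salt-treated arrays lay below all 4 control arrays, and the sensitive control replicate 2 was the control nearest to them. The share of all probe sets with this separation over both bulks was not counted. Within a bulk, both salt arrays lay below both controls for 38.9% (tolerant) and 33.4% (sensitive) of all probe sets. The average response was -1.03 ± 0.17 (SE, limma adjusted p = 0.003), a 2.05-fold lower level on the log2(value + pseudocount) scale. It stayed called when any 1 of the 8 arrays was left out and after quantile normalization (-0.85).

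EXPB6 is a beta-expansin whose transcript rises with gibberellin in deepwater rice internodes. It had scaled signals of 177 and 149.8 in the salt-treated tolerant bulk, against 304 and 289.9 in the tolerant control. In the sensitive bulk it had 158 and 168 after salt, against 378 and 241 in the control. The 4 salt-treated arrays again lay below the 4 controls, a separation not counted over all probe sets, and the bulks overlapped after salt. The average response was -0.86 ± 0.15 (SE, limma adjusted p = 0.003), 1.82-fold lower, and it too stayed called in all 8 leave-outs and after quantile normalization (-0.65).

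EXP10, an alpha-expansin known to be induced by aluminium in rice roots, was also called lower in the average response. The tolerant bulk had scaled signals of 251 and 301 after salt, against 317 and 321 in its control, while the sensitive bulk had 163 and 143 after salt, against 338 and 261 in its control. The sensitive salt arrays were the lowest of the 8, and the tolerant salt arrays straddled the sensitive control replicate 2. The average response was -0.58 ± 0.12 (SE, limma adjusted p = 0.011). It lost its call without tolerant bulk control replicate 1 (-0.58) or 2 (-0.57), tolerant bulk salt replicate 1 (-0.51) or sensitive bulk salt replicate 2 (-0.53).

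EXPB3 and EXPB4, beta-expansins that also respond to gibberellin in deepwater rice, fell by less. EXPB3 had 2018 and 1819 in the salt-treated tolerant bulk, against 2756 and 2797 in the tolerant control, and 1714 and 1324 in the salt-treated sensitive bulk, against 1999 and 1645 in the sensitive control. EXPB4 had 953 and 889 in the salt-treated tolerant bulk, against 1133 and 1023 in the tolerant control, and 596 and 544 in the salt-treated sensitive bulk, against 878 and 761 in the sensitive control. Salt and control arrays of EXPB3 separated in the tolerant bulk and overlapped in the sensitive bulk, while those of EXPB4 separated in both. The average responses were -0.40 ± 0.11 for EXPB3 and -0.37 ± 0.09 for EXPB4 (SE, limma adjusted p = 0.029 and 0.024). Both calls ended after quantile normalization (-0.17 for EXPB3 and -0.12 for EXPB4). EXPB3 was not called without any 1 of the 4 tolerant arrays, sensitive bulk control replicate 1 or sensitive bulk salt replicate 2 (-0.31 to -0.44). EXPB4 was not called without any 1 of the 4 tolerant arrays or either sensitive salt array (-0.34 to -0.41). The suffix of the EXPB4 probe set (_s_at) marks probes that can match transcripts of other genes as well, and that of EXPB3 and EXP10 (_a_at) marks probes shared by transcripts of 1 gene, so the EXPB4 signal may hold more than that gene.

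**Figure D1:**
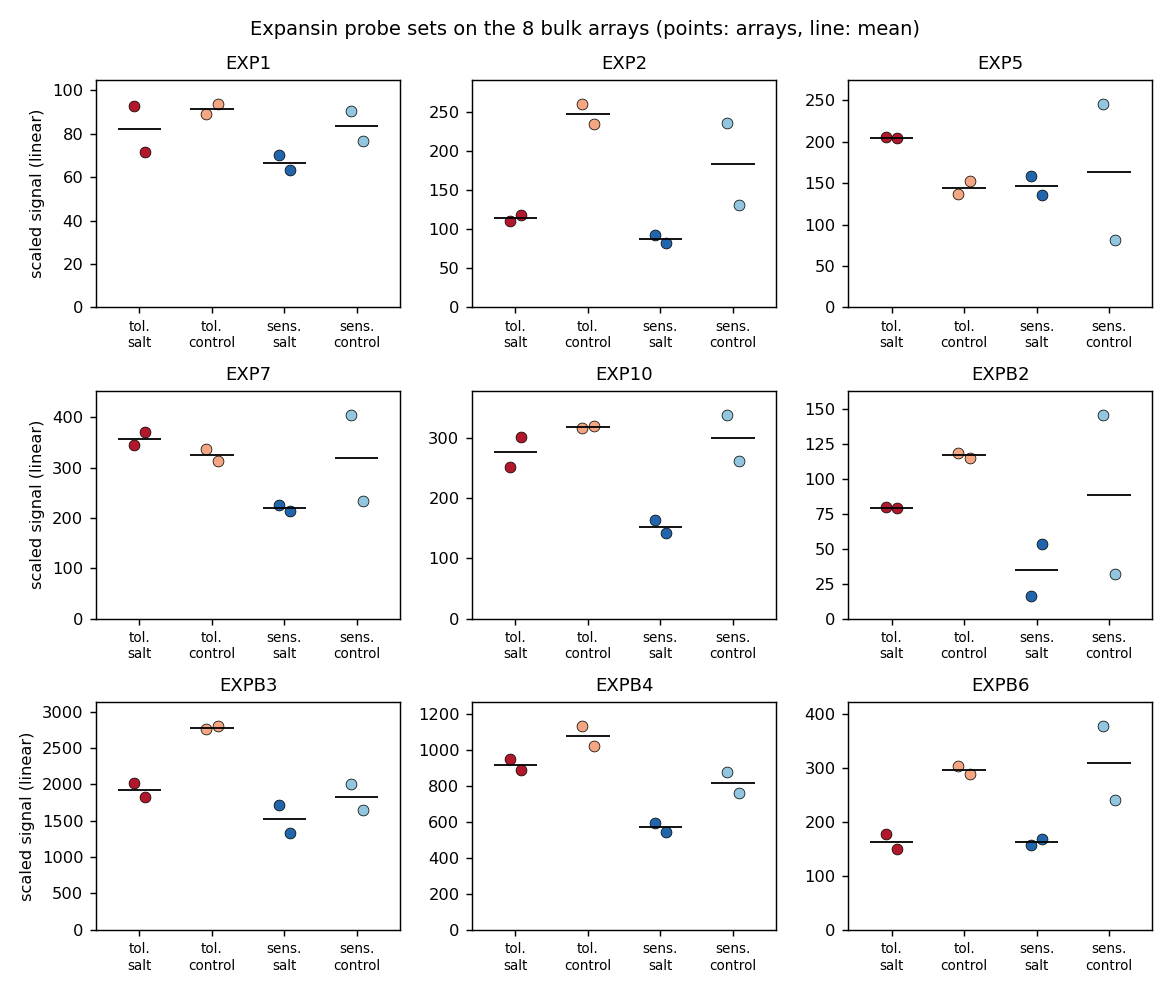
Scaled signal (linear axis from 0) of 9 expansin probe sets on the 8 bulk arrays, with salt left of control in each bulk; points are arrays and lines are means of 2 arrays. For EXP2 and EXPB6 all 4 salt-treated points lie below the 4 control points, a separation not counted over all probe sets. The 2 sensitive controls stand far apart for EXP5, EXP7 and EXPB2.

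The other 5 tested probe sets, of EXPB2, EXP1, EXP5 and EXP7 (a bright and a dim one), were not called in the average response. EXPB2, a beta-expansin linked to the rice root system, had a difference of -0.83 ± 0.42 (SE, limma adjusted p = 0.22). Its scaled signals were 79.4 and 78.9 in the salt-treated tolerant bulk, against 118 and 115 in the tolerant control, and 16.04 and 53.3 in the salt-treated sensitive bulk, against 145 and 32.0 in the sensitive control. The tolerant arrays were close within each condition, and the sensitive arrays overlapped between conditions.

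EXP7 and EXP5 had higher values after salt than in control in the tolerant bulk, with no call in the reported fit. EXP5 was called higher there in 1 of 7 other settings, the fit of the 4 tolerant arrays alone (0.49, limma adjusted p = 0.035). EXP7 is an alpha-expansin whose overexpression has been reported to raise the salt tolerance of rice. Its bright probe set had 344 and 370.1 in the salt-treated tolerant bulk, against 336 and 313 in the tolerant control, and 227 and 214 in the salt-treated sensitive bulk, against 404 and 233 in the sensitive control. EXP5, another alpha-expansin, had 206 and 204 in the salt-treated tolerant bulk, against 137 and 152 in the tolerant control, and 158 and 135 in the salt-treated sensitive bulk, against 245 and 81.3 in the sensitive control. For both genes the salt arrays of the tolerant bulk lay above its controls, as they did for 16% of all probe sets, and in the sensitive bulk the controls of EXP5 lay on either side of the salt arrays. The average differences were -0.17 ± 0.16 for EXP7 and 0.27 ± 0.26 for EXP5 (SE, limma adjusted p = 0.53 and 0.56). EXP7 turned to 0.05 after quantile normalization. EXP1, an alpha-expansin, had 92.9 and 71.4 in the salt-treated tolerant bulk, against 89.3 and 93.7 in the tolerant control, and 70.1 and 63.5 in the salt-treated sensitive bulk, against 90.7 and 76.9 in the sensitive control. Its groups overlapped in the tolerant bulk, and its average difference was -0.23 ± 0.15 (SE, limma adjusted p = 0.35).

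The remaining probe sets were dim. EXP4, an alpha-expansin tied to the growth of the coleoptile and internode of deepwater rice, reached the filter level of 17.7 on 1 of the 8 bulk arrays and was not tested. Its scaled signals were 11.4 and 12.3 in the salt-treated tolerant bulk, against 0.303 and 9.81 in the tolerant control, and 24.3 and 14.9 in the salt-treated sensitive bulk, against 4.01 and 15.9 in the sensitive control. These arrays therefore give no measured change for EXP4. The remaining EXP7 probe sets ran from 4.21 to 22.5 in the tested one (suffix S2) and from 1.22 to 13.2 in the untested one (suffix S3), all of them dim. The tested one correlated with the bright probe set at Pearson r of -0.70 over the 8 arrays.

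EXP2 and EXPB6 fell in each bulk taken by itself, and EXP10 and EXPB4 fell in the sensitive bulk. These responses share their salt arrays with the comparison that picked the genes, and their counts are therefore not independent of the choice. In the tolerant bulk 2 of 10 fell, EXP2 by 1.08 ± 0.25 and EXPB6 by 0.85 ± 0.21 on the log2 scale (SE, limma adjusted p = 0.029 and 0.040), where 5.41% of all probe sets were called (4.43% fell, 0.986% rose). In the sensitive bulk 4 of 10 fell, where 6.53% of all were called (4.78% fell, 1.75% rose). They were EXP10 (-0.94 ± 0.18), EXP2 (-0.99 ± 0.25), EXPB6 (-0.87 ± 0.21) and EXPB4 (-0.52 ± 0.13), with limma adjusted p = 0.012, 0.039, 0.034 and 0.045 (SE in brackets). None rose in either bulk. Both salt arrays lay below both controls for 6 of 10 in the tolerant bulk, where 38.9% of all probe sets did, and for 6 of 10 in the sensitive bulk, where 33.4% did. EXPB3 had -0.53 ± 0.15 in the tolerant bulk (SE, limma adjusted p = 0.070) and -0.27 ± 0.15 in the sensitive bulk (SE, limma adjusted p = 0.33).

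Single arrays carried much of these counts. Without any 1 of the 4 tolerant arrays, 0 of 10 were called in the tolerant bulk by limma, while 3 of 10 had an unadjusted p under 0.05 each time, and the differences stayed between -1.15 and -1.004 for EXP2 and between -0.73 and -0.97 for EXPB6. In the sensitive bulk, leaving out control replicate 2 raised the count to 7 of 10, all lower after salt, among 7235 calls over all probe sets. EXP5 then had -0.73, EXP7 -0.87 and EXPB2 -2.14, and the 4 reported above stayed called. Without sensitive control replicate 1, 2 were called, EXP10 lower (-0.76) and EXP5 higher (0.82), among 2221 calls, and without sensitive salt replicate 1 or 2 limma called 0, with 5 of 10 at an unadjusted p under 0.05. In the average response, leaving out sensitive control replicate 2 gave 7 calls, with EXP7 at -0.36 and EXPB2 at -1.34 added, and leaving out sensitive control replicate 1 brought a call for EXP5, higher after salt at 0.66.

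**Figure D2:**
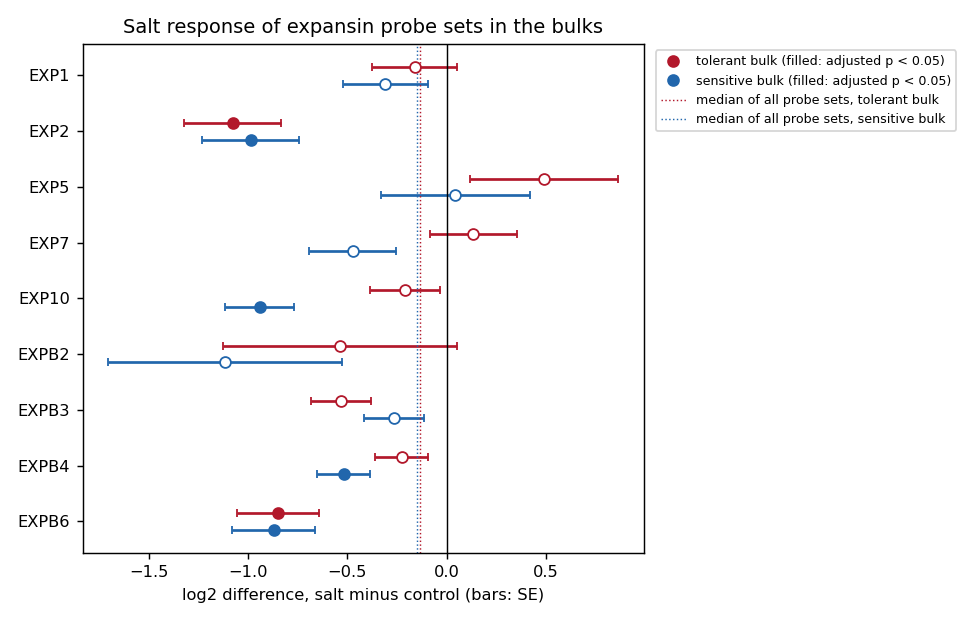
Salt response of 9 expansin probe sets in each bulk, as the log2 difference of salt minus control with its standard error; filled points had a limma adjusted p under 0.05, and dotted lines mark the median of all tested probe sets. EXP2 and EXPB6 are filled in both bulks, EXP10 and EXPB4 in the sensitive bulk, and EXP5 and EXP7 lie right of 0 in the tolerant bulk.

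The difference of the 2 bulks' responses holds the comparison that picked the genes, and it is therefore given as values without a test. The response in the tolerant bulk was higher than that in the sensitive bulk by 0.73 ± 0.25 for EXP10 and by 0.61 ± 0.31 for EXP7 (SE). For EXP2 and EXPB6 the difference of the responses was -0.09 ± 0.35 and 0.02 ± 0.29 (SE). Over all probe sets limma called 0.173%. A call in 1 bulk and none in the other, as for EXP10 and EXPB4, is not a test of a difference between them, and no such difference is read here.

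After salt, most expansins were brighter in the tolerant than in the sensitive bulk, which is taken as the pattern the genes were picked by. Both tolerant arrays lay above both sensitive arrays for 8 of the 10 tested probe sets, where 33.8% of all probe sets did so, and below for 1, where 17.5% did. The values are those given above for the salt-treated arrays. The difference was 1.30 for EXPB2, 0.83 for EXP10, 0.69 each for EXPB4 and EXP7, 0.47 for EXP5, 0.38 for EXP2, 0.35 for EXPB3 and 0.27 for EXP1. For EXP10 the tolerant mean was 276 ± 35.5 and the sensitive mean 153 ± 14.5 in scaled signal (SD, n = 2 each), and for EXPB4 the tolerant mean was 921 ± 45.2 and the sensitive mean 570.1 ± 36.9 (SD, n = 2 each). EXPB6 did not share the pattern, at -0.00 with overlapping arrays, and the dim EXP7 probe set had -0.23. The range for EXP1 was 0.09 to 0.46 and for EXPB3 0.16 to 0.53 when single arrays were left out. Over all probe sets limma called 1.28% in this comparison, 0.719% as higher in the tolerant bulk, and calls of the 10 are not given.

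In control seedlings the differences use none of those arrays, although their SE and p come from a spread estimate shared by all 8 bulk arrays. Limma called 0 of the 10 in control, where 1.46% of all probe sets were called (1.19% higher and 0.27% lower in the tolerant bulk). Of the 10, 2 had an unadjusted p under 0.05. These were EXPB3, at 0.61 ± 0.15 (SE, limma adjusted p = 0.086), and EXPB4, at 0.40 ± 0.13 (SE, limma adjusted p = 0.21). For both, the 2 tolerant control arrays lay above the 2 sensitive ones, which 26.9% of all probe sets did. Of the genes with the largest differences after salt, EXPB2 had 0.72 ± 0.59, EXP10 0.10 ± 0.18 and EXP7 0.08 ± 0.22 in control (SE), with overlapping arrays. Sensitive control replicate 1 and 2 each decided values here. Without replicate 1, 4 were called higher in the tolerant bulk: EXP2 (0.89), EXP5 (0.80), EXPB3 (0.75) and EXPB4 (0.50), among 3132 calls over all 32977 probe sets. Without replicate 2, EXP5 alone of the 10 was called, at -0.75, among 1409 calls.

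**Figure D3:**
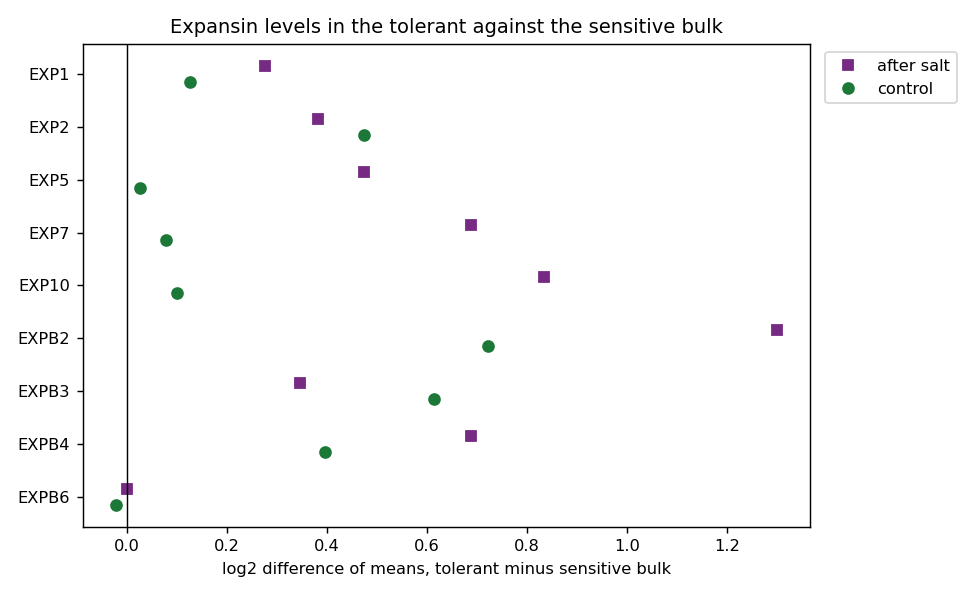
Log2 difference of mean levels, tolerant minus sensitive bulk, of 9 expansin probe sets, after salt (squares) and in control (circles). EXP10 and EXP7 lie near 0 in control, at 0.10 and 0.08, and at 0.83 and 0.69 after salt, while EXPB6 lies near 0 in both.

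The 4 beta-expansin genes are neighbours. In the gene table EXPB6, EXPB2, EXPB3 and EXPB4 follow each other on chromosome 10 with 0 other genes between them. Their profiles over the 8 bulk arrays were alike to different degrees, which is given as a description, since the arrays, their scaling and the conditions are shared. Pearson r was 0.89 between EXPB3 and EXPB4, 0.75 between EXPB2 and EXPB4 and 0.55 between EXPB4 and EXPB6. The closest profiles crossed the families: EXP2 and EXPB6 had r of 0.91, and EXP10 and EXPB4 0.91. EXP5 stood apart, with r of 0.01 with EXPB6 and 0.13 with EXP2, and 0.72 with EXP7.

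The parents varied far more between arrays than the bulks did. In MI48, tested against its own 4 arrays, limma called 0 of 10 expansin probe sets and 0% of the 42273 probe sets tested, of which 7954 had an unadjusted p under 0.05, none of them an expansin of the 10. EXPB2 was the only expansin of the 10 whose arrays separated lower after salt, which 10.9% of all probe sets did: on the scale shared by the 14 usable arrays it had 168 and 133 in salt-treated MI48, against 291 and 223 in the control (-0.76 ± 0.52, SE, limma adjusted p = 0.48). In the other tested genes the 2 salt arrays stood on either side of the controls or overlapped them. EXPB4 had 678 and 75.5 in salt-treated MI48, against 315 and 239 in the control, and EXPB6 had 324 and 30.9, against 332 and 190.5. EXP5 had 1252 and 89.0 after salt, against 81.3 and 144 in the control, so that 1 array held a level of EXP5 seen on no other. Scaling moved these differences: the median of all probe sets was 0.59 and that of the 10 expansins -0.21, against 0.05 and -1.24 after quantile normalization. There EXPB2 had -1.90 and EXP7 -0.47, where it has 0.66 in the reported fit, and the arrays of EXP10 and EXPB6 also separated lower after salt. Without MI48 salt replicate 1, EXPB6 was called lower (-2.90) among 2107 calls, and without MI48 salt replicate 2, EXP5 was called higher (3.49) among 210.

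CSR27, with 1 array per condition, has no replicate check. Its beta-expansins were lower on the salt array than on the control array: EXPB2 had 149.6 against 275, EXPB3 547 against 1077, EXPB4 159 against 254 and EXPB6 252 against 414. Among its alpha-expansins EXP2 was lower too, at 159 against 207. Of the rest, EXP4 was dim, with 0.965 against 9.75, and 4 were higher on the salt array, EXP10 with 125 against 99.2, EXP5 with 96.5 against 72.3, EXP7 with 157 against 123 and EXP1 with 57.9 against 43.9. The deposited signals of these 4 lay closer, at 12.9 against 12.2, 10 against 8.9, 16.3 against 15.1 and 6 against 5.4. The array medians were 1.6 (salt) and 1.9 (control), so the size of these rises depends on the scaling. EXP2 and EXPB6 had lower salt values in both bulks and on the 1 pair of CSR27 arrays, and in MI48 their arrays overlapped. The share of all probe sets lower on the CSR27 salt array was not counted.

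Across all 8 groups the order of the levels differed by gene. The parent arrays had another brightness than the bulk arrays, so genotype and array quality cannot be told apart where parents and bulks differ. From low to high, EXPB4 had 159 in CSR27 salt and 254 in CSR27 control, and the means of MI48 salt (377 ± 426) and MI48 control (277 ± 53.5) were higher, although both MI48 groups had an array below the CSR27 control. The bulks followed with 497 ± 32.1 in sensitive salt, 714 ± 72.3 in sensitive control, 802 ± 39.4 in tolerant salt and 939 ± 67.9 in tolerant control (SD, n = 2 each), and no neighbours among these 4 overlapped. EXPB3 had the same 4 groups on top in the same order. Its tolerant salt arrays (1672 ± 123) overlapped the sensitive control (1588 ± 218), and its tolerant control (2419 ± 25.1) lay apart from both. In EXP10 sensitive salt (133 ± 12.6) fell among the parent arrays, which ran from 74.5 to 145. Tolerant salt (241 ± 30.9), sensitive control (261 ± 47.1) and tolerant control (278 ± 2.16) lay above all of these and overlapped as neighbours.

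EXPB2 had the opposite arrangement, with the bulks below the parents. From low to high it had 30.2 ± 23.0 in sensitive salt and, without overlap, 69.0 ± 0.333 in tolerant salt, followed by the overlapping sensitive control (77.2 ± 69.8) and tolerant control (102 ± 2.23, SD, n = 2 each). The salt arrays of CSR27 (149.6) and MI48 (150.4 ± 25.2) came next, and the controls of MI48 (257 ± 47.8) and CSR27 (275) were highest. For EXPB6 the means of all 4 salt groups, from 142 ± 5.94 in the sensitive bulk to 252 in CSR27, lay below those of all 4 control groups, from 259 in the tolerant bulk to 414 in CSR27, although the wide MI48 salt pair overlapped its neighbours. EXP2 had its lowest means in sensitive salt (76.2 ± 6.24) and tolerant salt (100.2 ± 4.95), which did not overlap. For EXP7 the sensitive salt arrays (192 ± 7.78) lay above CSR27 salt (157), CSR27 control (123) and MI48 control (139 ± 14.2) and below the other bulk arrays, whose means of 278 to 311 overlapped. EXP1 and EXP5 overlapped with most neighbours, at group means of 43.9 to 79.7 for EXP1 and, the wide MI48 salt pair apart, 72.3 to 178 for EXP5.

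**Figure D4:**
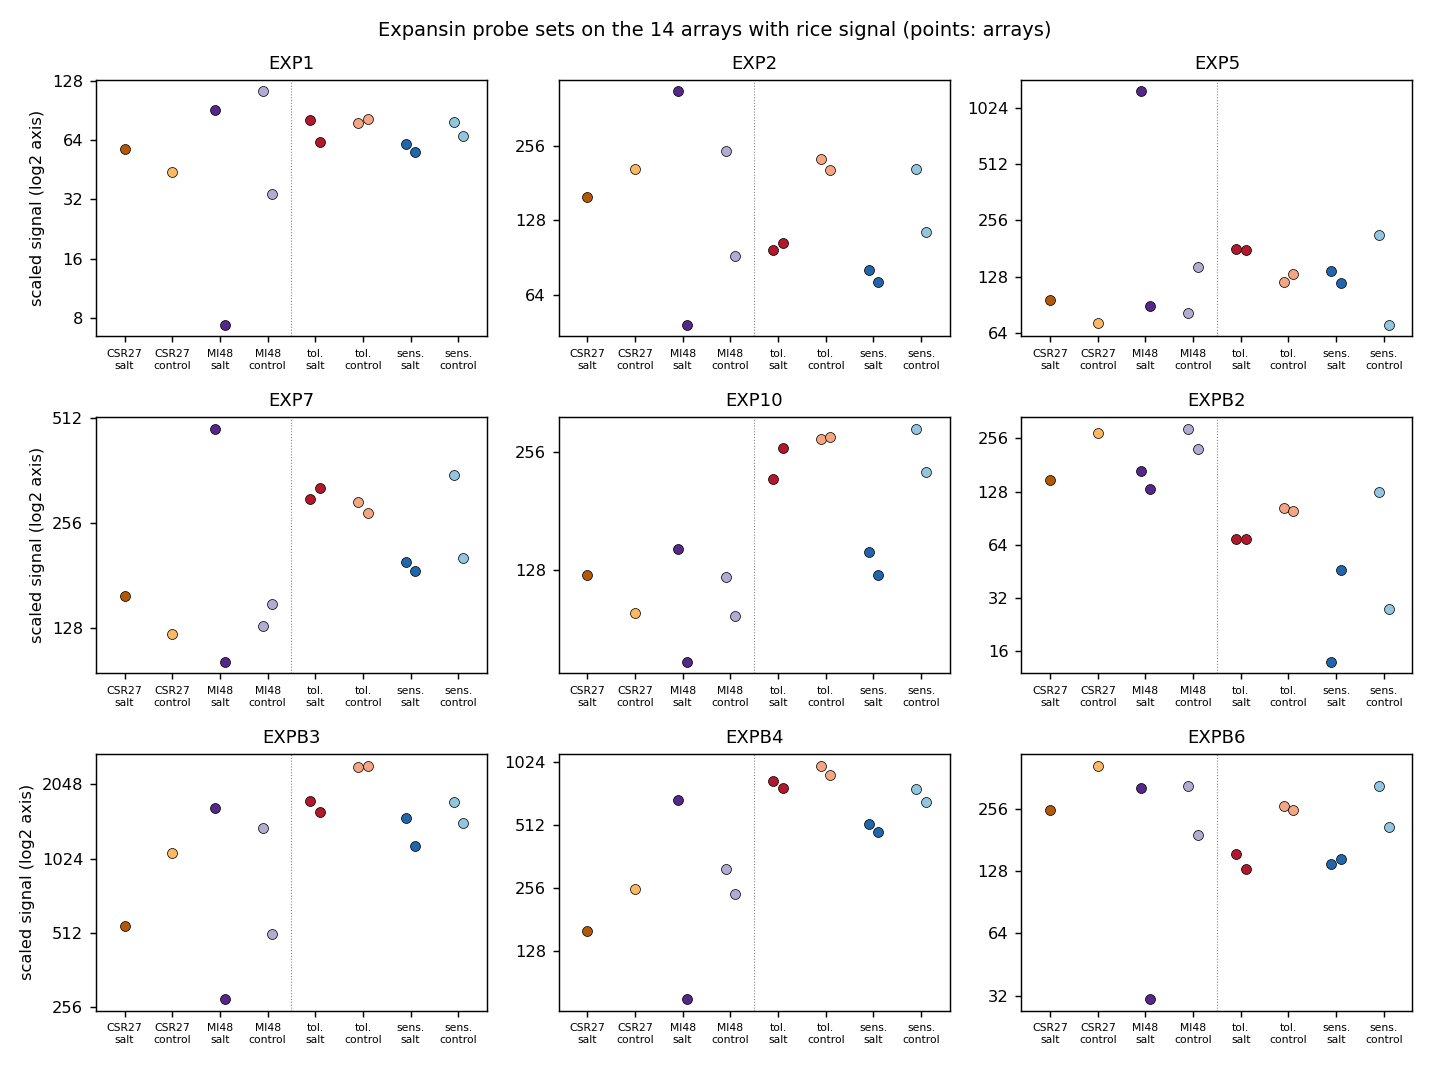
Scaled signal (log2 axis) of 9 expansin probe sets on the 14 arrays with rice signal, parents left and bulks right of the dotted line, salt left of control in each genotype; points are arrays. The MI48 salt arrays lie far apart for most genes, and EXPB2 is highest in the parent controls while EXPB4 is highest in the tolerant bulk.

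The rest of the expansin family on the array is given for comparison, without a test of the difference. The gene table names 49 expansin genes, 29 of which had a probe set, and the 19 genes not described above had 21 probe sets, 14 of them tested. In the average salt response 1 of these 14 fell and none rose. It was EXPB11, a beta-expansin also induced by gibberellin in deepwater rice, at -0.60 ± 0.13 (SE, limma adjusted p = 0.011; -0.38 after quantile normalization). It was called in the sensitive bulk at -0.78 ± 0.18 (SE, limma adjusted p = 0.029) and had -0.42 ± 0.18 in the tolerant bulk (SE, limma adjusted p = 0.24). The median of the 14 was -0.13, that of all probe sets -0.14. After salt 12 of these 14 had a positive difference of the tolerant from the sensitive bulk, with a median of 0.43 against 0.10 over all probe sets, and limma called 0 of the 14 there, with 3 at an unadjusted p under 0.05.

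Other genes of the growing wall gave single calls. OsXTH8, a xyloglucan endotransglucosylase induced by gibberellin, was the 1 gene of its list and fell in both bulks, with -1.31 ± 0.15 (tolerant) and -1.14 ± 0.15 (sensitive) (SE, limma adjusted p = 0.001 and 0.002). Of 14 tested cellulose synthase probe sets, 1 of CESA3 rose by 0.60 ± 0.09 in the average response (SE, limma adjusted p = 0.002), while the other CESA3 probe set was not called. CESA5 and CESA6 fell, with -0.41 ± 0.11 and -0.30 ± 0.09 (SE, limma adjusted p = 0.029 and 0.043). The last pair of calls ended after quantile normalization (-0.17 and -0.06), where 2 of the 14 rose and 0 fell. Of 18 tested cellulose synthase-like probe sets, CSLE1 rose (0.43 ± 0.11) and CSLC7 fell (-0.52 ± 0.12, SE, limma adjusted p = 0.026 and 0.016), the second not called after quantile normalization (-0.34, adjusted p = 0.072). Limma called 0 of 8 endoglucanase and 0 of 5 gibberellin probe sets, with 2 and 3 at an unadjusted p under 0.05.

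**Figure D5:**
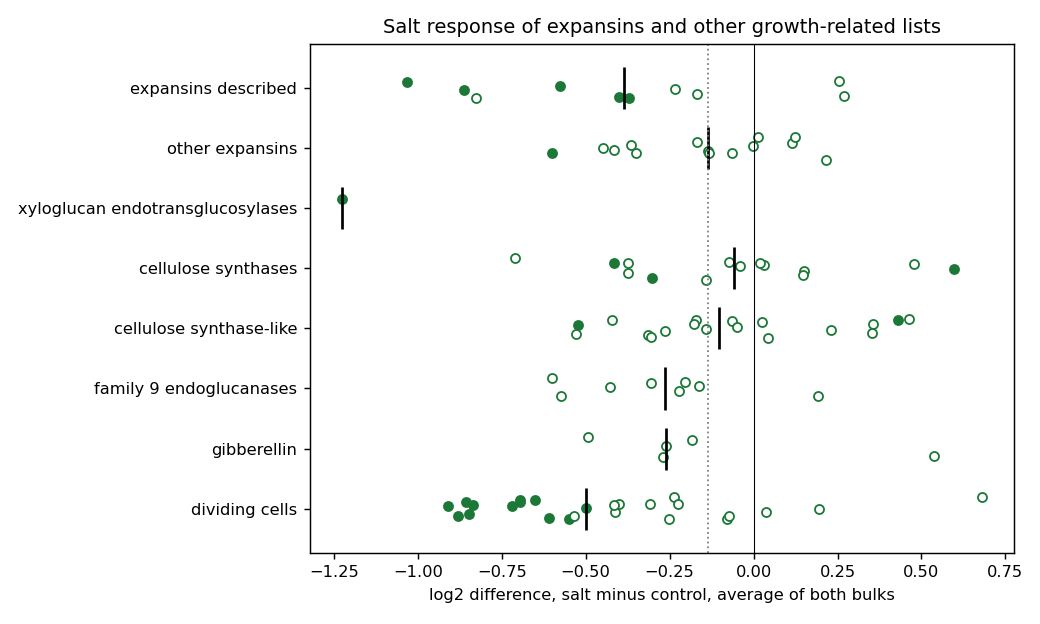
Average salt response of both bulks (log2 difference, salt minus control) by gene list; each point is a tested probe set, filled where the limma adjusted p was under 0.05, bars are list medians and the dotted line is the median of all tested probe sets. The 10 expansin probe sets described have a median of -0.39, the other expansins -0.13 and the dividing-cell markers -0.50.

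Markers of seedling parts moved with these comparisons. In these whole-seedling samples a smaller share of a cell type and less RNA per cell cannot be told apart. Of 25 probe sets of dividing-cell markers (cyclins, PCNA and MCM genes), 12 fell in the average response and none rose, with a median of -0.50. Their summed scaled signal was 3759 to 3884 in the salt-treated tolerant bulk, against 5405 to 5543 in its control, and 2842 to 3069 in the salt-treated sensitive bulk, against 4213 to 4886 in its control. After salt all 25 had a positive difference of the tolerant from the sensitive bulk, as most expansins had. Their median was 0.33, against 0.10 over all probe sets. After quantile normalization 22 of the 25 were positive, with a median of 0.22 against 0.02 over all. Genes often used as constant references (actins, tubulins, ubiquitin and GAPC genes) moved too. Of 26 tested probe sets 8 fell in the average response and none rose, with a median of -0.27. After quantile normalization 7 fell and 2 rose. ACT2 had -0.97, TUBB2 -0.91, TUBB6 -0.79 and UBQ5 -0.71, all called, while 9 of the 26 were positive, the highest at 1.19. In control 24 of the 26 had a positive difference of the tolerant from the sensitive bulk, and 19 after salt. The median over all probe sets was also positive, at 0.09 in control and 0.10 after salt. After quantile normalization 20 of the 26 were positive in control and 19 after salt. The 3 root probe sets summed to 571 to 592 in the tolerant salt arrays, against 883 to 921 in the tolerant control, and to 451 to 476 in the sensitive salt arrays, against 535 to 605 in the sensitive control. The 11 leaf probe sets summed to 38081 to 40890 in the tolerant salt arrays, against 42264 to 60429 in the tolerant control, and to 50349 to 53911 in the sensitive salt arrays, against 33642 to 46379 in the sensitive control. The 21 seed storage probe sets summed to 1106 to 1123 after salt and 6290 to 7088 in control in the tolerant bulk, and to 1892 to 2058 after salt and 766 to 887 in control in the sensitive bulk. No marker probe set was listed at 0 on both arrays of a bulk and condition. The part these markers and reference genes have in the expansin results was not tested.

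By likeness of profile, other named genes came close to the expansins over the 8 bulk arrays. Of 73 named genes compared with the mean standardised profile of the 6 alpha-expansin probe sets, the highest Pearson r were 0.96 for IRX9L, 0.94 for CWZF7, 0.90 for NAL1, 0.89 for GSK4 and 0.88 for DBB1. That mean gives equal weight to the dim tested EXP7 probe set, whose r with the other alpha-expansin probe sets ran from -0.42 to -0.70. For the 4 beta-expansin probe sets they were 0.96 for CPK13 and for CWZF7, 0.95 for RPL7A-1, 0.93 for NCL1 and 0.88 for MAGO2. These profiles share their arrays and scaling, and the ranking describes these 8 arrays only.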

How the data were processed

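The authors deposited 1 linear intensity per probe set and array, for which the submitters' processing notes name GCOS 1.2. The settings are not stated in the sources used here. Of 57381 probe sets, 123 control probe sets were left out. Arrays were scaled to a common log2 median. In the fit of the 8 bulk arrays a probe set was tested if it reached 17.7, the median of all scaled values, on at least 2 arrays (32977 tested), and log2(value + 3.86) was used. MI48 was fitted on its own 4 arrays with log2(value + 3.11), from the 14 arrays with rice signal (42273 tested). Folds of dim probe sets are therefore understated. The table holds no detection calls, and the number of arrays limits the precision.

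In R 4.3.3, limma 3.58.1 fitted group means (lmFit, then eBayes with a trend on intensity). Tests were two-sided, with Benjamini-Hochberg adjustment. The fit was tested on simulated data. Members, lists and the choice of the bulk fit were made with earlier results of these data known. Probe sets were named through the platform annotation and a gene table of assembly ASM3414082v1, used for names and gene order only; 17905 of 17905 gene IDs matched, and 22436 probe sets had 1 gene, 95 several and 34727 none. No gene of the proton ATPase list matched. The text names every probe set of the 10 genes, other expansins called in any contrast, at most 4 called probe sets of each wall list by size of change, and for likeness the 5 highest genes per family. Alternatives were a block on replicate number, a pseudocount of 0.25 times the above, a fit without filter, quantile normalization, fits of 14, of all 16 or of the 4 compared arrays, and leaving out each array in turn. Replicate numbers did not pair the arrays: replicate differences of different groups correlated at -0.00 to 0.03 in the bulks and 0.08 in MI48.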

Additional observations from a re-analysis of the deposited data

How the results depend on the processing

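The counts of expansin probe sets called, of 10, moved most with which arrays were fitted. Fits of 14 and of all 16 arrays, which add the more variable parent arrays, called 0 in the tolerant, sensitive and average responses, where 2, 4 and 5 are reported. With only the 4 arrays compared, the counts were 4 (EXP5 higher, 3 lower) in the tolerant and 0 in the sensitive response. Dropping the filter left 0 calls for the tolerant response and 1 for the sensitive response, and quantile normalization gave 3 in the average response. With single arrays left out, the ranges were 0 to 0 (tolerant response), 0 to 7 (sensitive), 2 to 7 (average), 0 to 4 (between bulks in control) and 0 to 1 (MI48). The counts between bulks after salt and for the difference of responses hold the comparison that picked the genes, and they are not given. The replicate block, whose numbers do not pair the arrays, gave 3, 4 and 5 in the tolerant, sensitive and average responses, 1 between bulks in control (EXPB3) and 0 for MI48. Leaving out sensitive bulk control replicate 2 reversed EXP5 in the sensitive response (-0.73, against 0.82 without replicate 1) and between bulks in control (-0.75, against 0.80 without replicate 1), and the cause was not tested. Over all probe sets, calls in the tolerant, sensitive and average responses numbered 1785, 2152 and 4907, against 3, 2 and 25 with 14 arrays and 0, 0 and 1 with 16. Leaving out 1 array gave 379 to 541, 360 to 7235 and 2336 to 9287. Without the filter, 1201, 1364 and 3708 were called. With the 4 arrays compared, 4195 were called in the tolerant and 381 in the sensitive response. Between bulks, 480 calls in control ran from 0 (16 arrays) to 3132 (without sensitive control replicate 1), and 423 after salt from 0 (14 or 16 arrays) to 1741 (the 4 arrays compared), with 923 after quantile normalization. The 57 calls for the difference of responses ran from 0 to 281. MI48, with 0 calls, had 2231 with the replicate block, 11271 with 14 arrays, 202 with 16, and 2107 or 210 without salt replicate 1 or 2. Quantile normalization changed the split of higher and lower calls over all probe sets, for the tolerant response to 745 and 904 against 325 and 1460, for the sensitive response to 1092 and 1044 against 576 and 1576, and for the average to 1833 and 2119 against 867 and 4040. Between bulks it gave 370 and 352 against 391 and 89 in control, and 349 and 574 against 237 and 186 after salt.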
